A study of Mus musculus with 12 samples.

Results

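The BCL-2 family holds the proteins that decide whether the outer membrane of the mitochondria is opened during apoptosis. The messenger RNA of 10 of its genes was examined in mouse bone marrow-derived macrophages (BMDMs) exposed to IL-4, to LPS or to both. The genes were chosen by symbol: Bcl2, Bcl2l1, Mcl1, Bcl2a1b and Bcl2a1d as pro-survival members, Bax and Bak1 as effectors, and Bcl2l11, Bid and Pmaip1 as BH3-only members. Each of the 10 symbols had 1 row among the 23847 rows of the deposited tables. All 10 were among the 11191 rows that reached 1 FPKM (fragments per kilobase of transcript, relative to all mapped fragments of a sample) in at least 1 sample and were tested. The values describe mRNA, and neither protein nor cell death is part of the files used here.

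Pro-survival members bind and restrain the effectors Bax and Bak1, which otherwise assemble into pores and release cytochrome c from the mitochondria. BH3-only members carry stress signals by occupying the groove of the pro-survival members, and some also engage the effectors directly. In macrophages the pro-survival member A1, encoded by a cluster of closely related Bcl2a1 genes, is a known target of NF-kB, and Bim, the product of Bcl2l11, is a main mediator of death when growth factor is withdrawn. IL-4 acts through STAT6 and polarizes macrophages along the alternative path, whereas LPS, from the outer membrane of Gram-negative bacteria, is sensed by a Toll-like receptor and activates NF-kB.

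All samples came from wild-type mice of 8 to 12 weeks on the C57BL/6 background, with bone marrow cells grown for 6 days in L929 supernatant, a source of M-CSF. Control cells received neither agent. IL-4 cells received IL-4 at 20 ng/ml for 24 h, LPS cells received LPS at 100 ng/ml for 3 h, and IL-4+LPS cells received IL-4 for 24 h and then LPS for 3 h. These doses are those of the labels, and the study's methods give that of LPS in nM instead. Each group held 3 samples numbered 1 to 3. The labels do not say what the number marks. The study describes these RNA-seq data as averages over 3 individual animals from separate experiments, without tying either to the numbers. The p-values therefore measure the spread between these samples, part of which may be technical.

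Fragment counts were not analysed here and absolute depth was unknown. Relative depth, read from the steps between low values, ran from 0.993 to 3.32 with control replicate 1 set to 1. Replicate 1 of each group lay at 0.993 to 1.02, and replicates 2 and 3 lay at 1.26 to 3.32. Replicate 1 stood apart in all 4 groups: on the first component of the deviations from the group means (28.15% of their variance) it scored 15.5 to 33.31, against -18.57 to -4.45 for replicates 2 and 3. Results that rest on it are given with replicates 2 and 3 only. The part of depth in them was not tested. The median difference of all rows was -0.44 in log2(FPKM + 1) for LPS against control and -0.41 for IL-4+LPS against IL-4. Member changes are therefore also read against that shift, through median scaling. Each sample was divided by its median ratio to the row means, over rows with at least 1 FPKM in every sample. The macrophage markers with a row (5 of 6) summed to 18185 to 19528 FPKM in control, 7112 to 7307 in IL-4, 14415 to 15422 in LPS and 5975 to 6299 in IL-4+LPS. Most of each sum was Lyz2, with means of 16116, 4873, 12881 and 4298 FPKM. With IL-4, 4 of the 5 were lower in limma, beside 21% of all rows. They were Lyz2 (-1.725, adjusted p = 6.01e-08), Mertk (-1.40, adjusted p = 0.000155), Csf1r (-0.53, adjusted p = 0.00569) and Itgam (-0.50, adjusted p = 0.0134). Cd68 differed by -0.21 (adjusted p = 0.14). The part of these shifts in the member results was not tested. All 9 B cell, T cell and stromal markers were below 1 FPKM in every sample, as were 2 of the 3 markers each of mast cells or basophils and of dendritic cells, the exceptions being Mcpt8 (up to 1.76) and Zbtb46 (up to 2.83). Neutrophil markers (7 of 8 with a row) were present, and their sums are given beside the results they touch. In bulk RNA, fewer cells of a type and less RNA per cell cannot be told apart.

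Bcl2a1b and Bcl2a1d, which encode copies of A1, showed the largest LPS response of the 10 genes. Bcl2a1b stood at 17.1, 10.4 and 10.96 FPKM in control replicates 1 to 3 and at 691, 715 and 708 FPKM in LPS. Bcl2a1d stood at 7.72, 6.40 and 5.82 FPKM in control and at 446, 500.45 and 516 FPKM in LPS. Every LPS sample of both genes lay far above every control sample. The means rose 55.0-fold for Bcl2a1b and 73.4-fold for Bcl2a1d, with limma differences of 5.71 (standard error 0.34, adjusted p = 1.78e-07) and 6.00 (standard error 0.23, adjusted p = 1.03e-08) in log2(FPKM + 1). After IL-4 pretreatment, LPS brought Bcl2a1b to 690.1, 934 and 860.5 FPKM and Bcl2a1d to 418, 630.4 and 575 FPKM. The response to LPS after IL-4 was 4.88 for Bcl2a1b (adjusted p = 6.26e-07) and 5.30 for Bcl2a1d (adjusted p = 2.39e-08). These samples lay on both sides of those of LPS alone, replicate 1 below and replicates 2 and 3 above for both genes. IL-4+LPS minus LPS was 0.22 for Bcl2a1b (95% interval -0.54 to 0.98, adjusted p = 0.678) and 0.13 for Bcl2a1d (-0.39 to 0.65, adjusted p = 0.723). With replicates 2 and 3 only, both were higher after IL-4, by 0.33 (adjusted p = 0.0353) and 0.24 (adjusted p = 0.0406).

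IL-4 on its own also moved the Bcl2a1 genes, far less. Bcl2a1b stood at 53.3, 21.4 and 16.8 FPKM in IL-4 and Bcl2a1d at 19.4, 10.7 and 9.34 FPKM. Replicate 1 was the highest of the 3 IL-4 samples for both genes, and for Bcl2a1b the lowest IL-4 sample fell just below the highest control sample. The rise was 1.05 for Bcl2a1b (standard error 0.34, adjusted p = 0.0355) and 0.83 for Bcl2a1d (standard error 0.23, adjusted p = 0.0185). Without IL-4 replicate 1 the differences dropped to 0.57 (adjusted p = 0.0539) and 0.53 (adjusted p = 0.0374). Without control replicate 2 or 3 neither gene passed, with adjusted p between 0.0517 and 0.107. Both were called with replicates 2 and 3 only. The Bcl2a1b call was lost with no filter on low values (adjusted p = 0.0561) and with only the compared groups (adjusted p = 0.0983). Per-gene Tukey tests called neither Bcl2a1b (adjusted p = 0.102) nor Bcl2a1d (adjusted p = 0.0528). The summed neutrophil markers, a list of genes of a cell type that also expresses Bcl2a1, were 375, 969 and 687 FPKM in control, 235, 448 and 305 in IL-4, 568, 1167 and 946 in LPS, and 469, 941 and 659 in IL-4+LPS. They overlapped between control and LPS with none of the 7 genes past the test, and were lowest in IL-4 replicate 1, where Bcl2a1b was highest for its group. In IL-4 against control 2 of the 7 were lower, beside 21% of all rows. In IL-4+LPS against IL-4 4 were higher, beside 15% of all rows, with a list median of 1.03. Their part in the Bcl2a1 values was not tested.

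The Bcl2a1 genes are near copies, so their rows are uncertain as separate measurements. Of the 50-base words in the longest transcript, 79.2% for Bcl2a1b and 79.5% for Bcl2a1d also occurred in another gene, with 57.6% of the Bcl2a1b words found in Bcl2a1d. The ratio of Bcl2a1b to Bcl2a1d lay between 1.37 and 2.75 in the 12 samples. Another copy, Bcl2a1a, went from 4.21 ± 1.34 FPKM in control to 310 ± 2.21 in LPS (mean ± SD, n = 3), and Bcl2a1c, which shares only 10.4% of its words, from 0.443 ± 0.294 to 36.5 ± 8.60, by 73.5-fold and 82.5-fold. Summed to 1 value, the 4 rows rose by 5.96 with LPS (adjusted p = 5.43e-08) and by 1.02 with IL-4 (adjusted p = 0.0228), and IL-4+LPS minus LPS was 0.20 (adjusted p = 0.674).

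Both genes lie on chromosome 9 and are protein-coding, Bcl2a1b at chr9:89199273-89207838 on the plus strand and Bcl2a1d at chr9:88723288-88731850 on the minus strand (mm10). The 250 bases before their starts are printed because the copies moved together and share letters there, with those of Bcl2a1a for comparison, 5′ to 3′ from RefSeq (GRCm38.p6). Capitals mark the AP-1 pattern, searched as TGANTCA, and after it the PU.1 pattern, searched as AGGAAGT, both on either strand.
Bcl2a1b, chr9:89199023-89199272, plus strand: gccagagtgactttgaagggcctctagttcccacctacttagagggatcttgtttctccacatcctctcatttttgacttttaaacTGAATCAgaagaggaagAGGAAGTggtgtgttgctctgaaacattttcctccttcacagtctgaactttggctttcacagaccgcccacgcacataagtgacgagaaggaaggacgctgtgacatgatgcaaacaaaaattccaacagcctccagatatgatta
Bcl2a1d, chr9:88731851-88732100, minus strand: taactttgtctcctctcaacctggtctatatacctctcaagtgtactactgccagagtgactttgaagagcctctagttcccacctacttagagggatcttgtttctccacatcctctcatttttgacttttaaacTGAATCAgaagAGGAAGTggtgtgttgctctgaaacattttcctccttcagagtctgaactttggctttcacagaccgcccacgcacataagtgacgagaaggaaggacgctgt
Bcl2a1a, chr9:88956670-88956919, plus strand: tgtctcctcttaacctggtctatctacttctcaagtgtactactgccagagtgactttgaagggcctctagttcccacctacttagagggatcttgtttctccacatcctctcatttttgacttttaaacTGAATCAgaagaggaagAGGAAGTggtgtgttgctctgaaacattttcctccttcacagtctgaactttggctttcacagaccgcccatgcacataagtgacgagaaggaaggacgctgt
The Bcl2a1b and Bcl2a1a windows were identical at 205 of 206 aligned bases, and those of Bcl2a1b and Bcl2a1d at 198 of 200 with a gap of 6 bases. The PU.1 pattern began 17 bases after the start of the AP-1 pattern in Bcl2a1b and Bcl2a1a and 11 bases after it in Bcl2a1d. Before Bcl2a1c, not printed, the PU.1 pattern matched and the AP-1 pattern did not, and neither the NF-kB nor the STAT6 consensus matched in the windows of any of the 4 copies. Of 32851 windows of 250 bases, 6.75% held the AP-1 pattern and 7.69% the PU.1 pattern. In the windows of the other 7 members with an entry, the patterns searched (these 2, the STAT6 consensus, held by 5.85% of windows, and the NF-kB consensus, held by 7.25%) matched at 2 places, PU.1 in the window of Bak1 and NF-kB in 1 of the 3 windows of Bcl2l1. Windows precede RefSeq starts. Both of these lie within the gene in GENCODE, which reaches 27029009 for Bak1 and 152831728 for Bcl2l1. GENCODE starts of Bcl2a1b, Bcl2a1d and Bcl2a1a (89199209, 88731914 and 88956900) fall inside the printed windows. Pmaip1 had no entry. A match describes letters and is not evidence of binding.

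**Figure D1:**
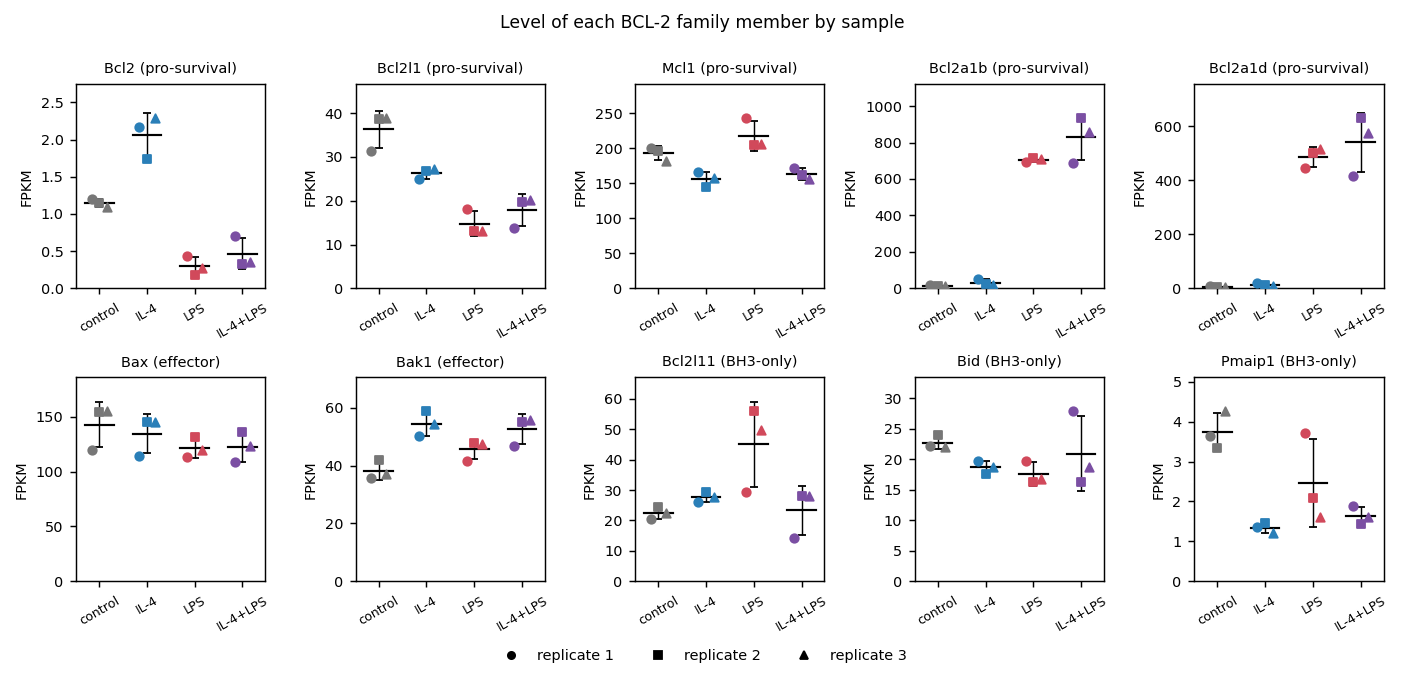
Level of each of the 10 members in FPKM (vertical axis, linear, from 0) in the 4 groups. Points are samples, with the shape giving the replicate number, bars are means and whiskers are SD (n = 3); Bcl2a1b and Bcl2a1d lie at 418 to 934 FPKM in the 6 samples with LPS, while Bax stays between 109 and 155 FPKM throughout.

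Mcl1 (chr3:95658721-95663178, plus strand) encodes a short-lived pro-survival protein that many myeloid cells require, and was the most abundant member before LPS. It stood at 200.8, 196 and 182 FPKM in control, 165, 145 and 158 in IL-4, 243, 205 and 206 in LPS, and 172, 162 and 155 in IL-4+LPS. The 3 IL-4 samples lay below the 3 control samples, and the 3 IL-4+LPS samples lay below the 3 LPS samples. With IL-4, Mcl1 fell by 0.31 (standard error 0.08, adjusted p = 0.0152), a call lost without IL-4 replicate 2 (adjusted p = 0.0625). In LPS-exposed cells with IL-4 pretreatment it fell by 0.41 (standard error 0.08, adjusted p = 0.0037), and the mean was 74.8% of that in LPS alone. This second difference passed in each of the 12 fits that left out a sample and under both other scalings. LPS alone gave 0.17 (adjusted p = 0.0866), with no overlap between the groups, and 0.58 after median scaling (adjusted p = 0.000178), so that the LPS call for Mcl1 depended on the scaling.

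Bcl2l1 (chr2:152780668-152831682, minus strand), which encodes BCL-XL, fell with LPS. Its values were 31.4, 38.7 and 38.8 FPKM in control, 24.9, 26.8 and 27.2 in IL-4, 18.1, 13.2 and 13.1 in LPS, and 13.7, 19.8 and 20.2 in IL-4+LPS. All 6 samples with LPS lay below all 6 without it. LPS minus control was -1.25 (standard error 0.16, adjusted p = 4e-05) and remained at -0.86 after median scaling (adjusted p = 0.000811). IL-4 alone gave -0.45, just short of the threshold (95% interval -0.80 to -0.09, adjusted p = 0.0503), although the groups did not overlap, and replicates 2 and 3 only gave -0.51 (adjusted p = 0.000104). After IL-4 the LPS response was -0.55 (adjusted p = 0.0101), and -0.15 after median scaling (adjusted p = 0.443). IL-4+LPS minus LPS was 0.25 (95% interval -0.10 to 0.61, adjusted p = 0.266), and 0.43 without IL-4+LPS replicate 1 (adjusted p = 0.041).

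Bcl2 (chr1:106538179-106714290, minus strand), which gave the family its name, had the lowest levels of the 10 genes in all groups but IL-4. It stood at 1.21, 1.15 and 1.10 FPKM in control, 2.17, 1.74 and 2.29 in IL-4, 0.433, 0.178 and 0.274 in LPS, and 0.707, 0.328 and 0.361 in IL-4+LPS. The IL-4 samples lay above control and the samples of both LPS groups below it, with no overlap. IL-4 raised Bcl2 by 0.51 (standard error 0.12, adjusted p = 0.00772), a 1.80-fold change of the means, but the call was lost with a pseudocount of 0.1 (0.78, adjusted p = 0.0612). LPS minus control was -0.74 (adjusted p = 0.000229) and IL-4+LPS minus IL-4 was -1.07 (adjusted p = 1.75e-05), with means at 25.6% and 22.5% of those without LPS. Bcl2 reached the 1 FPKM needed for testing only in the 6 samples without LPS, and both LPS calls held with no filter on low values. The log2(FPKM + 1) differences understate the fold changes because the values are low.

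Different genes made up most of the pro-survival mRNA with and without LPS. The 5 genes summed to 239 to 258 FPKM in control, 206 to 265 in IL-4, 1399 to 1444 in LPS and 1294 to 1746 in IL-4+LPS. Mcl1 made up 76.3% to 77.8% of this sum in control, 62.4% to 73.9% in IL-4, 14.3% to 17.3% in LPS and 9.27% to 13.3% in IL-4+LPS. Bcl2a1b and Bcl2a1d together made up 6.65% to 9.60% in control and 81.3% to 84.8% in LPS, and in IL-4+LPS 85.6% to 89.6%. FPKM is per length, so the levels can be added across genes, but shares of mRNA are not shares of protein.

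**Figure D2:**
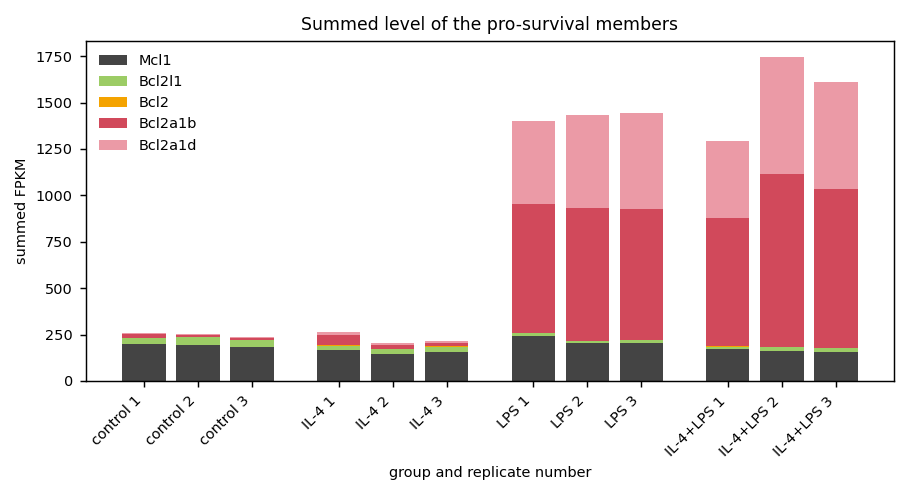
Summed FPKM of the 5 pro-survival members (vertical axis, from 0) in each of the 12 samples, stacked by gene and ordered by group and replicate number. The 6 samples with LPS stand at 1294 to 1746 FPKM, mostly Bcl2a1b and Bcl2a1d, and the 6 without it at 206 to 265 FPKM, mostly Mcl1.

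Of the effectors, Bax (chr7:45461695-45466898, minus strand) was not called in any comparison as deposited. It stood at 119, 154 and 155 FPKM in control, 114, 145 and 145 in IL-4, 114, 131 and 119.7 in LPS, and 109, 136 and 124 in IL-4+LPS. All 4 groups overlapped, and replicate 1 was the lowest sample of each. LPS minus control was -0.22 (95% interval -0.52 to 0.07, adjusted p = 0.149) and turned to 0.19 after median scaling (adjusted p = 0.212). It passed at -0.36 after quantile normalization (adjusted p = 0.015), at -0.30 with replicates 2 and 3 only (adjusted p = 0.00312) and at -0.35 without control replicate 1 (adjusted p = 0.0313), so that the call and its direction depended on the processing. Bax shares 13.8% of its 50-base words with the annotated gene Gm45808, so a part of its reads may be assigned either way.

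Bak1 (chr17:27019812-27028626, minus strand) was higher with IL-4. Its values were 35.8, 41.9 and 36.9 FPKM in control, 50.3, 58.8 and 54.2 in IL-4, 41.7, 47.7 and 47.3 in LPS, and 46.6, 55.1 and 55.8 in IL-4+LPS. IL-4 samples did not overlap with control, whereas the lowest LPS sample lay below the highest control sample. IL-4 raised Bak1 by 0.50 (standard error 0.10, adjusted p = 0.00259), 1.42-fold by the means, and this call held in all 12 fits that left out a sample. The rise with LPS was 0.25 (adjusted p = 0.0382) and was lost without control replicate 1 or 3, without LPS replicate 2 or 3 and without IL-4 replicate 3 (adjusted p between 0.0522 and 0.116), while median scaling gave 0.65 (adjusted p = 0.000163). IL-4+LPS minus LPS was 0.20 (adjusted p = 0.149) and passed with a replicate block (adjusted p = 0.0118), which took the replicate number as a factor. The replicate 1 samples deviated alike across groups, but pairing of replicates 2 and 3 by that number was not established.

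Among the BH3-only members, Bcl2l11 (chr2:128126038-128162547, plus strand) rose with LPS and was lower when IL-4 preceded it. It stood at 20.5, 24.5 and 22.6 FPKM in control, 26.1, 29.3 and 27.6 in IL-4, 29.2, 55.9 and 49.8 in LPS, and 14.1, 28.0 and 27.9 in IL-4+LPS. Every LPS sample lay above every control and every IL-4+LPS sample, and replicate 1 was the lowest sample of all 4 groups, by the widest margin in both LPS groups. LPS raised Bcl2l11 by 0.92 (standard error 0.27, adjusted p = 0.00994), to 199.8% of the control mean. In IL-4-pretreated cells LPS gave -0.30 (95% interval -0.90 to 0.30, adjusted p = 0.337), and 0.01 without IL-4+LPS replicate 1. IL-4+LPS minus LPS was -0.93 (standard error 0.27, adjusted p = 0.0245), with the ratio at 0.482 to 0.560 within each of the 3 replicate numbers. This call was lost without IL-4+LPS replicate 1 (-0.62, adjusted p = 0.0566), without LPS replicate 2 (-0.75, adjusted p = 0.0887) and without LPS replicate 3 (-0.83, adjusted p = 0.0824), and kept with replicates 2 and 3 only (-0.89, adjusted p = 9.04e-05).

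Pmaip1 (chr18:66458604-66465558, plus strand), which encodes Noxa, an antagonist of MCL-1, was lower with IL-4. Its values were 3.63, 3.33 and 4.26 FPKM in control, 1.37, 1.47 and 1.21 in IL-4, 3.72, 2.10 and 1.61 in LPS, and 1.88, 1.45 and 1.62 in IL-4+LPS. The IL-4 samples lay at less than 1.5 FPKM and did not overlap with control, while LPS replicate 1 stood within the control range. With IL-4, Pmaip1 fell by 1.01 (standard error 0.18, adjusted p = 0.00174), to 36.1% of the control mean, and passed in each of the 12 fits that left out a sample. The difference with LPS was -0.49 (adjusted p = 0.0318). It was lost without control replicate 1 or 3 and without LPS replicate 2 or 3 (adjusted p between 0.0578 and 0.134), was -0.19 after median scaling and turned to 0.10 after quantile normalization (adjusted p = 0.613).

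Bid (chr6:120893119-120916820, minus strand), whose protein is cleaved downstream of death receptors to reach the mitochondria, was not called in any comparison as deposited. It stood at 22.1, 24.0 and 22.1 FPKM in control, 19.6, 17.6 and 18.7 in IL-4, 19.7, 16.2 and 16.8 in LPS, and 27.8, 16.2 and 18.7 in IL-4+LPS. IL-4+LPS replicate 1 was the highest of the 12 samples, while the IL-4 and LPS samples all lay below control. LPS minus control was -0.36 (95% interval -0.71 to -0.004, adjusted p = 0.0628), which passed without LPS replicate 1, without IL-4+LPS replicate 1 or 2 and with replicates 2 and 3 only (-0.46, adjusted p = 0.00125), and was 0.04 after median scaling (adjusted p = 0.855). IL-4 minus control was -0.27 (adjusted p = 0.211), and passed without IL-4+LPS replicate 1 (adjusted p = 0.0334).

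The order of the levels changed with LPS. In control, Mcl1 was followed by Bax, then Bak1 and Bcl2l1, then Bid and Bcl2l11, then Bcl2a1b, Bcl2a1d, Pmaip1 and Bcl2, with overlap between Bak1 and Bcl2l1 and between Bid and Bcl2l11. With IL-4 the order was Mcl1, Bax, Bak1, Bcl2a1b, Bcl2l11, Bcl2l1, Bid, Bcl2a1d, Bcl2 and Pmaip1, where the neighbours from Bak1 to Bcl2l1 overlapped, as did Bid and Bcl2a1d. With LPS, Bcl2a1b and Bcl2a1d led Mcl1 and Bax, followed by Bak1, Bcl2l11, Bid, Bcl2l1, Pmaip1 and Bcl2, with overlap between Bak1 and Bcl2l11 and between Bid and Bcl2l1. In IL-4+LPS the order was the same, with overlap among Bcl2l11, Bid and Bcl2l1.

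Over the 10 members, LPS raised 4 and lowered 3, against 16.9% of all tested rows called higher and 57.7% called lower (74.6% in either direction). Their median difference was -0.03, against -0.44 for all rows. After median scaling the all-row calls split 42.6% higher, against 22.6% as deposited. IL-4 raised 4 members and lowered 2, with 16% and 21% of all rows called (37% in either direction). In IL-4-pretreated cells LPS raised 2 and lowered 2 members, with 15% and 57.9% of all rows called (72.9% in either direction), and 43.2% of the calls were higher after median scaling against 20.6% as deposited. In that scaling 5 members were higher, Bak1 (0.36), Bid (0.52) and Mcl1 (0.48) joining the Bcl2a1 genes, and only Bcl2 was lower. IL-4+LPS minus LPS called no member higher and 2 lower, Mcl1 and Bcl2l11, with 15% and 15.8% of all rows called (30.9% in either direction). At an unadjusted p under 0.05 the limma count of higher members was also 0, the Tukey tests gave 0 as well, and replicates 2 and 3 only gave 4, Bak1 (0.22), Bcl2l1 (0.57), Bcl2a1b and Bcl2a1d. With replicates 2 and 3 only, 2346 of 11037 rows were called higher, against 1682 of 11191 with all samples. Leaving out IL-4+LPS replicate 1 gave 2, Bak1 (0.28, adjusted p = 0.0459) and Bcl2l1. The groups did not overlap for 7 members in LPS against control and for 8 in IL-4 against control, where 76.6% and 51.6% of all rows did not overlap. For IL-4+LPS against IL-4 and against LPS the numbers were 4 and 2, beside 74.6% and 42.2% of all rows, and for IL-4+LPS against control 7, beside 75.7%.

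**Figure D3:**
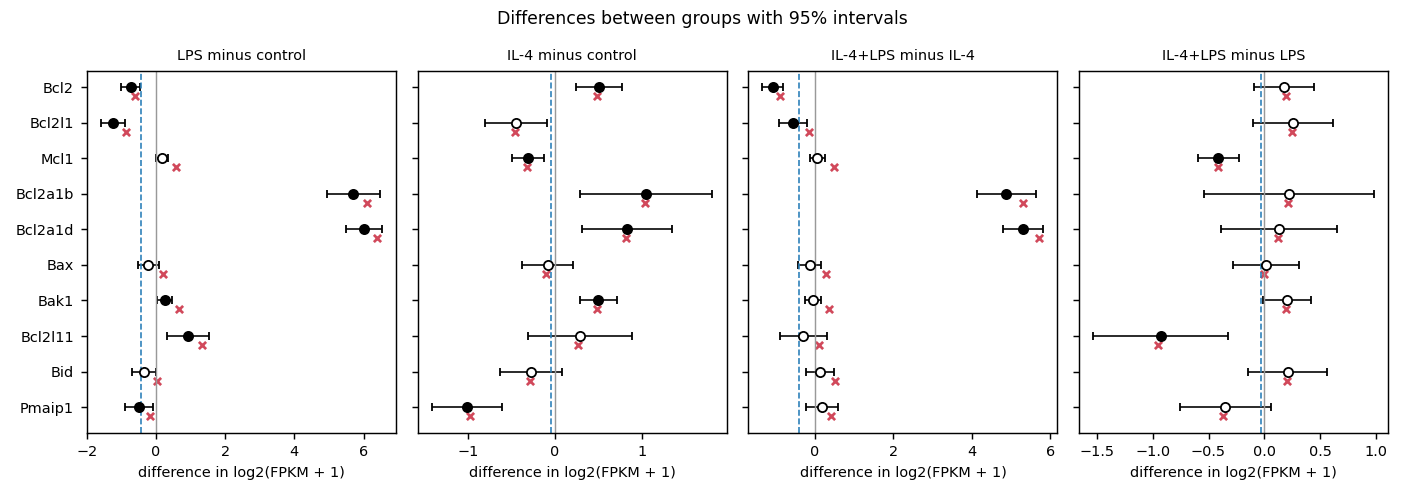
Difference of each member in log2(FPKM + 1) (horizontal axis) in 4 comparisons, as limma estimates with 95% intervals. Filled circles passed the adjusted threshold of 0.05, open circles did not, crosses give the estimate after median scaling and dashed lines the median of all rows as deposited; the crosses sit to the right of the circles in both LPS comparisons.

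A difference between the responses to LPS in pretreated and untreated cells was tested as the interaction, the former minus the latter. None of the 10 members passed in limma, where 4.58% of all rows were called higher and 4.63% lower (9.2% in either direction), and 3 members had an unadjusted p under 0.05. Bcl2l11 had -1.22 (standard error 0.38, unadjusted p = 0.00933, adjusted p = 0.076). Bcl2l1 had 0.70 (unadjusted p = 0.0109, adjusted p = 0.0834) and Pmaip1 0.66 (unadjusted p = 0.0281, adjusted p = 0.147). All 3 passed without LPS replicate 1, at -1.50 (adjusted p = 0.0186), 0.84 (adjusted p = 0.0313) and 0.90 (adjusted p = 0.00708), and with replicates 2 and 3 only, at -1.16 (adjusted p = 0.000464), 1.08 (adjusted p = 9.82e-05) and 0.86 (adjusted p = 0.0169). Bcl2l1 also passed without IL-4+LPS replicate 1, at 0.87 (adjusted p = 0.0171). With replicates 2 and 3 only, Bid (0.40, adjusted p = 0.0401) and Bcl2a1d (-0.39, adjusted p = 0.0444) passed as well. In that setting 1459 of 11037 rows were called higher and 1393 lower, against 512 and 518 of 11191 with all samples. For Bcl2a1b the interval of the interaction was wide, from -1.90 to 0.25.

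**Figure D4:**
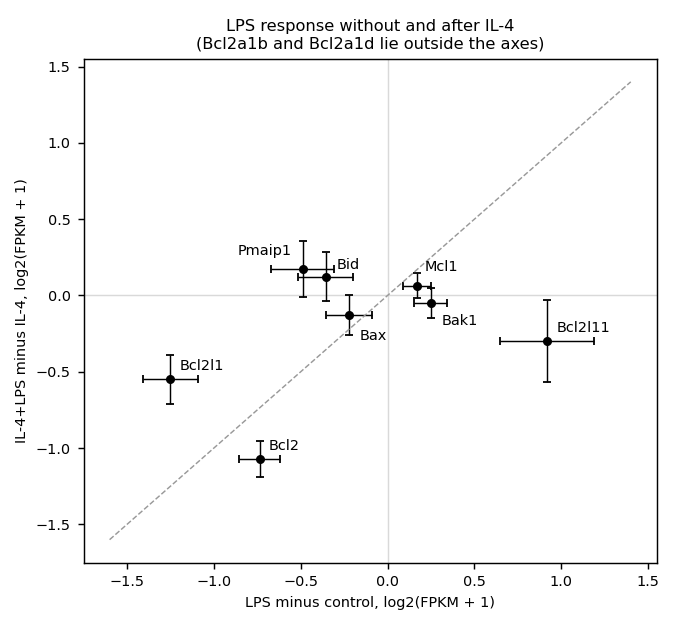
LPS response without IL-4 (horizontal axis) and after IL-4 (vertical axis) of 8 members in log2(FPKM + 1), with standard errors as whiskers and a dashed line where both are equal. Bcl2l11 lies farthest below the line, at 0.92 and -0.30, and Bcl2l1 lies above it, at -1.25 and -0.55; Bcl2a1b and Bcl2a1d are beyond the axes.

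Other rows whose values ran alongside a member over the 12 samples were ranked by Pearson r of log2(FPKM + 1), as a description over points that share 4 groups. The Bcl2a1 rows were closest to each other (r from 0.997 to 0.999), with shared sequence among them. Znrf2 (0.992) and Rab19 (0.990) were closest to Bcl2, AU040320 (0.972) and Cdc42ep3 (0.970) to Bcl2l1, and Nab1 (0.971) and Ccr3 (0.969) to Mcl1. Stk19 (0.960) and Noc2l (0.945) were closest to Bax, Srpr (0.951) and Manf (0.949) to Bak1, Mesdc1 (0.946) and Cdca4 (0.934) to Bcl2l11, Cacnb1 (0.943) and Cchcr1 (0.935) to Pmaip1. The nearest rows to Bid were less alike, Dnajc10 at 0.856 and Xdh at 0.82.

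The remaining relatives and the machinery on which the family acts were taken from lists of 52 genes, of which 47 were tested. LPS raised 15 and lowered 23 of them, beside 16.9% and 57.7% of all rows, with a list median of -0.20 against -0.44 for all rows, and after median scaling the split was 21 and 17. IL-4 raised 14 and lowered 10, beside 16% and 21% of all rows, and IL-4+LPS minus LPS gave 10 higher and 9 lower, beside 15% and 15.8%. In IL-4-pretreated cells LPS raised 15 and lowered 25, beside 15% and 57.9%, which became 20 and 13 after median scaling. With replicates 2 and 3 only, IL-4 lowered 16, IL-4+LPS minus LPS gave 19 higher, and 7 interactions passed in each direction in place of 1 higher and 2 lower. Calls over all rows rose there too. Of 11037 rows, 3242 were lower with IL-4, 2346 higher in IL-4+LPS minus LPS, and 1459 higher and 1393 lower in the interaction. With all samples these were 2346, 1682, 512 and 518 of 11191. Of the 5 other BH3-only genes tested, LPS lowered 4 and raised none as deposited, where 57.7% of all rows were lower. The fifth, Bnip3, was at -0.02 (adjusted p = 0.926), and was called higher after median scaling (0.35, adjusted p = 0.0494) and quantile normalization (0.40, adjusted p = 0.0208). Bmf, a BH3-only gene linked to the cytoskeleton, fell by 2.70 (adjusted p = 9.59e-09), Bnip3l by 1.28 (adjusted p = 1.44e-05), Bbc3, which encodes Puma, by 0.90 (adjusted p = 9.93e-05) and Bad by 0.74 (adjusted p = 0.000249), and each stayed lower under both other scalings. After IL-4, LPS lowered all 5, beside 57.9% of all rows. Of these, Bad (-0.02 and -0.18) and Bbc3 (-0.08 and 0.11) did not pass after median scaling and quantile normalization. IL-4 alone lowered 3 of the 5, beside 21% of all rows. Among these Bmf fell by 1.71 (adjusted p = 1.06e-06), while Bnip3l rose by 0.52 (adjusted p = 0.0168). Bnip3 passed the interaction, at -1.03 (adjusted p = 0.00798). The higher interaction counted above was that of Bmf, whose mean was 6.14 FPKM in control, lower with IL-4, and 0.0934 and 0.0176 FPKM in the groups with LPS alone and after IL-4. With both LPS groups so near 0, the value on the log2(FPKM + 1) scale follows the level before LPS, and no difference in response is read from it.

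Downstream of the mitochondria, LPS lowered 4 of the 6 apoptotic caspases, near the 57.7% of all rows that were lower. Casp9, the initiator caspase of the apoptosome, fell by 2.54 (adjusted p = 9.04e-07), Casp2 by 1.69 (adjusted p = 2.35e-06) and the executioner Casp6 by 1.03 (adjusted p = 2.36e-06). IL-4 raised Casp6 by 1.35 (adjusted p = 2.13e-06), and Casp2 fell by 0.51 (adjusted p = 0.021). In IL-4+LPS against LPS Casp6 and Casp2 passed in the same directions, at 1.33 (adjusted p = 2.47e-06) and -0.46 (adjusted p = 0.0393). Of the 9 genes of the apoptosome and mitochondrial release, LPS lowered 6 and raised 3 (57.7% and 16.9% of all rows), including Cycs, the gene of cytochrome c, at 0.75 (adjusted p = 3.17e-05). Endog and Aifm1, both of which encode mitochondrial proteins that can move to the nucleus, fell by 1.21 (adjusted p = 5.15e-05) and 1.00 (adjusted p = 3.44e-06). The falls of Diablo, Vdac1 and Vdac2 in this list were lost after median scaling. Cycs and Endog were higher with IL-4, by 0.95 (adjusted p = 2.89e-05) and 0.71 (adjusted p = 0.00609), among 5 of the 9 that rose, beside 16% of all rows.

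Of the 5 inhibitors of apoptosis, proteins that restrain caspases or ubiquitinate signalling partners, LPS raised 2 and lowered 1 (16.9% and 57.7% of all rows). Birc3 rose by 2.40 (adjusted p = 1.52e-08) and Birc2 by 1.57 (adjusted p = 2.78e-06), Birc5, which also acts in cell division, fell by 0.87 (adjusted p = 0.000294), and the other two did not pass. With IL-4, Birc3 fell by 0.91 (adjusted p = 6.39e-05), and IL-4+LPS minus LPS was -0.54 (adjusted p = 0.00209).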

How the data were processed

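Messenger RNA from 12 BMDM samples, 3 per group, was measured by poly-A selected, paired-end RNA-seq. Per the labels and the submitters' processing notes, the authors mapped reads to mm10 with TopHat2 2.0.7 and computed expression with Cufflinks 2.0.2. The deposited values are FPKM per gene and sample, with no further normalization between samples described. The gene annotation was not given in the sources used here. An FPKM value is relative to the total of its sample, so a few strongly induced genes can shift all others. Locus starts were counted from 0 and are printed with 1 added.

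Groups were taken from the sample titles. Rows with at least 1 FPKM in at least 1 sample were kept, transformed to log2(FPKM + 1) and fitted with limma 3.58.1 in R 4.3.3 (group means over all 12 samples, eBayes with an intensity trend, two-sided). Benjamini-Hochberg adjustment was applied over all tested rows within each comparison, with a threshold of 0.05. The fit was tested on simulated data. Same-numbered LPS and IL-4+LPS samples had r of 0.119 to 0.386, and differently numbered ones of replicates 2 and 3 had 0.133 and 0.22. The replicate block is given as an alternative where it changed that comparison. Error comes from the spread between replicates, since depth was unknown.

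The members and gene lists were chosen with earlier results of these data known. From each list up to 4 called genes of largest difference were eligible for naming. Coordinates were checked for overlap with the same gene in GENCODE vM21, and shared 50-base words were counted in its transcripts. Alternatives were a pseudocount of 0.1, other filters, median scaling, quantile normalization, no trend, only the compared groups, a replicate block, per-gene Tukey tests, a 2-fold minimum, replicates 2 and 3 only, and each sample left out. Values of some genes on the pathway lists are not reported here.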

Additional observations from a re-analysis of the deposited data

How the results depend on the processing

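In the fits that each left out 1 sample, members called higher and lower numbered 3 to 4 and 2 to 4 for LPS minus control, 2 to 4 and 1 to 4 for IL-4 minus control, 2 and 2 for IL-4+LPS minus IL-4, 0 to 2 and 1 to 2 for IL-4+LPS minus LPS, and 0 to 2 and 0 to 1 for the interaction. Replicates 2 and 3 only gave 5 lower with LPS, 4 lower with IL-4, 4 higher in IL-4+LPS minus LPS, and 3 higher and 2 lower interactions. Calls over all rows rose in that setting too. Of 11037 rows the same counts were 6947, 3242, 2346, 1459 and 1393, against 6462, 2346, 1682, 512 and 518 of 11191 with all samples. Per-gene Tukey tests, which give no interaction, called 2 higher with LPS, 2 higher with IL-4, 1 lower in IL-4+LPS minus IL-4 and 1 lower in IL-4+LPS minus LPS. The 2-fold minimum was applied to the difference in log2(FPKM + 1). It left 2 higher and 1 lower with LPS, 1 and 1 with IL-4, 1 lower in IL-4+LPS minus IL-4 and 0 lower in IL-4+LPS minus LPS. Bcl2 with LPS (-0.74) fell short of it, although its mean was 25.6% of that in control. With only the compared groups in the fit, 4 members were lower with IL-4 and 1 was lower in IL-4+LPS minus LPS, where Bcl2 was under the filter. Median scaling gave 5 higher and 1 lower in IL-4+LPS minus IL-4, and quantile normalization 1 higher interaction. Directions turned for differences that had not been called. Median scaling gave 0.19 for Bax and 0.04 for Bid in LPS minus control, 0.36 for Bak1, 0.28 for Bax and 0.10 for Bcl2l11 in IL-4+LPS minus IL-4, and -0.00062 for Bax in IL-4+LPS minus LPS. Quantile normalization gave -0.07 for Mcl1 in IL-4+LPS minus IL-4 and -0.05 for Bax in IL-4+LPS minus LPS. Replicates 2 and 3 only gave -0.06 for Bid in IL-4+LPS minus IL-4. A called difference turned once, Pmaip1 in LPS minus control, to 0.10 with quantile normalization. Leaving out a sample turned Bax (-0.21 to 0.03 in IL-4 minus control, -0.07 to 0.10 in IL-4+LPS minus LPS and -0.02 to 0.22 in the interaction), Bak1 (-0.11 to 0.03), Bcl2l11 (-0.46 to 0.01) and Bid (-0.09 to 0.28) in IL-4+LPS minus IL-4, and Bid (-0.01 to 0.36) in IL-4+LPS minus LPS, none of them called. The cause was not tested. Depth was unknown, and Bcl2 and Pmaip1 had the lowest values.

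Deviations of samples that share a number had r of 0.002 to 0.386 (mean 0.124, over 0.1 in 11 of 18 pairs). All 3 pairs were over 0.1 between LPS and IL-4+LPS (0.119 to 0.386) and not in the other comparisons. Between LPS and IL-4+LPS, differently numbered samples of replicates 2 and 3 reached like values (0.22 and 0.133). Those pairing a replicate 1 with another number lay between -0.288 and -0.182. The replicate 1 samples of all groups deviated alike, with r of 0.133 to 0.386 between them. For replicates 2 and 3, pairing by number was not established in any comparison. With the replicate block 1 member was higher in IL-4+LPS minus LPS, Bak1, with no other call changed there. With LPS 5 members were lower, Bax (-0.22, adjusted p = 0.00681) and Bid (-0.36, adjusted p = 0.0326) joining, and Mcl1 was higher (0.17, adjusted p = 0.0161). In the interaction 2 were lower, Bak1 (-0.30, adjusted p = 0.0217) and Bcl2l11 (-1.22, adjusted p = 0.011). Of all 11191 rows, 7013 were lower with LPS and 1095 in the interaction under the block, against 6462 and 518 without it.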

Other observations

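Genes that regulate the family or act beside it were also measured. Of 7 regulators, LPS raised 5 and lowered 2, beside 16.9% and 57.7% of all rows. The NF-kB subunit genes Nfkb1 and Rel rose by 2.58 (adjusted p = 3.14e-08, limma) and 2.47 (adjusted p = 2.02e-07), and Foxo3, which encodes a transcription factor that can activate Bcl2l11, fell by 3.38 (adjusted p = 1.54e-08). Ddit3, a gene of the endoplasmic reticulum stress response, fell by 1.66 (adjusted p = 0.00382). In IL-4+LPS against LPS, Rel was higher by 0.65 (adjusted p = 0.00812) and Stat3 lower by -0.86 (adjusted p = 0.00565).

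Of 7 genes of the death receptor and necroptosis branch, LPS raised 2 and lowered 4, a share of lower genes near that of all rows (57.7%). Cflar, which encodes the caspase-8 inhibitor c-FLIP, rose by 3.31 (adjusted p = 9.03e-10) and by 3.68 after IL-4 (adjusted p = 5.18e-10), and Mlkl, the executor of necroptosis, by 1.44 (adjusted p = 1.36e-07). Fadd, the adaptor of the death receptors, fell by 1.08 (adjusted p = 1.5e-05). The falls of Ripk1, Ripk3 and Tradd with LPS were smaller, and those of Ripk3 and Tradd did not pass after median scaling or quantile normalization, nor that of Ripk1 after median scaling. IL-4 raised Ripk3 by 1.03 (adjusted p = 0.00106) and IL-4+LPS minus LPS was 1.00 (adjusted p = 0.00151). Of 3 tested genes that control MCL-1 protein turnover, Fbxw7 passed with LPS as deposited, at -0.67 (adjusted p = 0.000128), a call lost after quantile normalization (-0.08). Huwe1 and Usp9x, the other two, were not called as deposited and were called higher after median scaling (0.51, adjusted p = 0.00012, and 0.67, adjusted p = 0.0199) and quantile normalization (0.39, adjusted p = 0.000617, and 0.57, adjusted p = 0.0391). The relative Bcl2l13 was higher with IL-4, by 0.30 (adjusted p = 0.0113), and Bcl2l2 was lower by -0.33 (adjusted p = 0.0163).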
